A study of Homo sapiens with 197 samples.

Results

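In the kinase screen compared here, 9 wells, or 4.92% of the kinase wells, held IMR90 cells infected with an enzyme that phosphorylates a nucleoside or nucleotide, creatine or a precursor of cofactors or sterols, and not a protein. IMR90 is a non-transformed human lung fibroblast line. The 9 wells were chosen by the kinase named in the sample title. UCK2, TK1 and CMPK formed the nucleotide class, CKM, CKMT1A and CKMT2 the creatine class, and PAPSS1, PDXK and PMVK the cofactor class. They were compared with all other kinase wells, most of which received protein, lipid or other metabolite kinases. Some, such as those of CALM2, PLAU, CKS1B and CKS2, received a protein that is not itself a kinase. In all kinase wells the kinase carried a myristoylation signal and a Flag tag and was delivered by retrovirus, and total RNA was collected 4 days after infection. The 2 IMR90 controls are labelled as empty vector, and the study's text describes control wells infected with the matching vector that holds no kinase. Over the 58 rows tested, the 9 wells gave 522 of the 10614 well/row pairs of kinase wells. Each of these 9 enzymes had 1 lane and no replicate, so the 9 wells stand for 9 different enzymes and not for repeats of 1 condition.

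The 9 enzymes serve housekeeping chemistry of the cell. UCK2 (uridine-cytidine kinase) and TK1 (thymidine kinase) salvage nucleosides, and CMPK (UMP-CMP kinase) turns the monophosphates into diphosphates. The creatine kinases store energy as phosphocreatine, CKM in the cytosol of muscle and CKMT1A and CKMT2 in mitochondria. PAPSS1 makes the donor of sulfate groups, PDXK (pyridoxal kinase) makes pyridoxal phosphate, the cofactor of many amino acid enzymes, and PMVK (phosphomevalonate kinase) acts in the mevalonate pathway to sterols and isoprenoids. The readout was a different set of genes. Nanostring counts color-barcoded probes without amplification, and the panel was built around 42 tissue-restricted genes, most of them expressed in the germ line and silent in fibroblasts. It held no probe for any of the 9 enzymes, and no defining marker of fibroblasts, so neither the enzymes nor the cell type could be checked by their own transcripts.

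Total counts were 132614 to 255746 per lane in the 9 wells (median 177656), 29629 to 340763 in the other kinase wells and 142255 and 152599 in the controls. Background was set for each lane at the mean + 2 SD of its 8 negative-control probes. This level was 60.1 counts in UCK2 and 65.8 in TK1, and 17.2 to 29.9 in the other members. UCK2 and TK1 lie in 1 run of 12 sample numbers with 10 other kinase wells. Of these, 9 also had a level above that of every kinase well outside the run (43.995 to 60.5, against at most 33.8), and MPP1 had 20.95. Such runs are called blocks here. The labels do not say what they are, and levels of many rows differed between them. For UHRF1, 68.01% of the variance over kinase wells lay between the 17 blocks, and for B2M 42.1%. The 9 wells were spread over 7 blocks, so each is also set against the other kinase wells of its own block. Values below are normalized counts, that is, counts scaled in each lane by PGK1, TBP and TUBB2A.

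The rows named for the vector were read first. The row named MyrFlag, for the tag, had 762 normalized counts in UCK2, 737 in TK1, 521 in CMPK, 596 in CKM, 647 in CKMT1A, 506 in CKMT2, 554 in PAPSS1, 611 in PDXK and 549 in PMVK. The controls had 631 and 677, within this range. The row named NeoR, for neomycin resistance, ranged from 142.1 to 215 in the 9 wells and was 167.9 and 173.4 in the controls. Neither row separated the 9 wells from the controls. The controls are labelled as empty vector, so the comparison does not show whether a well was infected. Whether these rows measure the tag and the resistance gene is uncertain, for reasons given with the row named ZBTB33 below. Their values therefore do not tell whether tag or resistance transcripts differed between wells. The log2 fold change over the controls was -0.10 for MyrFlag (95% interval -0.41 to 0.20, edgeR). The study's text states that the tag was absent from IMR90 or SW39 cells without infection and that every kinase was detected by it. In the deposited counts the row named MyrFlag was well counted in both controls. These are labelled as empty vector, so they are not the uninfected cells of that statement.

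The row named ZBTB33 did separate the 9 wells from the controls. ZBTB33 is the symbol of Kaiso, a protein that binds methylated DNA. In its siRNA screen, the study counted ZBTB33, DNMT1 and ZBTB4 transcripts in IMR90 cells and reports a clear depletion of each. Here the ZBTB33 row was at background in both controls. The rows named DNMT1 and ZBTB4 were near background too, at 9.45 to 22.1 and 2.87 to 14.4 normalized counts in the 9 wells. Whether names are misplaced in the files, and which, could not be settled from them. So what the vector rows and the gene rows outside the tissue-restricted and housekeeping genes measure is uncertain. All are called by their deposited names throughout, and what is said of a gene belongs to the name. The row named ZBTB33 had 50778 normalized counts in UCK2, 14396 in TK1, 12910 in CMPK, 24894 in CKM, 21410 in CKMT1A, 24705 in CKMT2, 5062 in PAPSS1, 30628 in PDXK and 20043 in PMVK. The controls had 8.30 and 17.4, from 9 and 18 raw counts that were below the level of their lanes. All 9 wells were far above both controls. The log2 fold change was 10.78 (standard error 1.96, edgeR quasi-likelihood test, adjusted p = 7.64e-06), and because the controls were at background its exact size is not known. The other kinase wells spanned 139.2 to 106624 in this row. UCK2 was the highest of the 9 and PAPSS1 the lowest.

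The same order of extremes was seen in the row named ZBTB38, the symbol of another methyl-binding protein, with 32433 normalized counts in UCK2 and 2696 in PAPSS1. The other 7 members had 8883 to 17345. Over all kinase wells this row followed the ZBTB33 row closely (Pearson r = 0.992, Spearman rho = 0.982). The ratio of ZBTB33 to ZBTB38 was 1.37 to 3.2 in the other kinase wells. Whether the row named ZBTB38 measures its own transcript was not tested, so what it measures is uncertain too. Unlike ZBTB33, the ZBTB38 row was counted in the controls, at 1509 and 6676, and PAPSS1 lay between them. The log2 fold change over the controls was 1.70 with a 95% interval of -0.63 to 4.04 (adjusted p = 0.550, edgeR). Against the other kinase wells, the ZBTB33 and ZBTB38 rows differed by -0.065 and 0.0083 on the log2 scale, with 95% intervals of -0.95 to 0.82 and -0.89 to 0.90. The spread was unequal between classes. In ZBTB33 the creatine class spanned 21410 to 24894, whereas 11 wells with enzymes of sugar metabolism spanned 4103 to 89871.

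**Figure D1:**
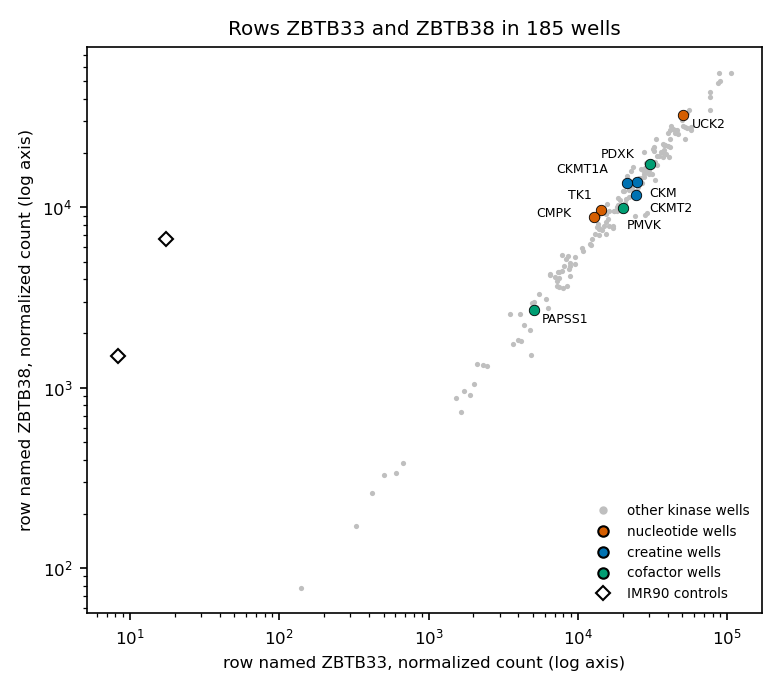
Normalized counts of the rows named ZBTB33 (x axis, log) and ZBTB38 (y axis, log) by well. Colored points are the 9 wells, grey points the other kinase wells and diamonds the 2 IMR90 controls. The 9 wells lie along the band of the other kinase wells from PAPSS1 at the lower end to UCK2 at the upper end, and both controls lie at the left with under 20 counts of ZBTB33.

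The question the screen asked of each kinase was whether it could turn on silent tissue-restricted genes. For the 9 metabolite kinases together, no row of the panel passed the test against the other kinase wells. By edgeR's quasi-likelihood test, 0 of 58 rows passed at an adjusted p of 0.05 (0%), and 0 rows had an unadjusted p under 0.05. By DESeq2 with 2 kinds of size factors, the counts of passing rows were also 0. The smallest unadjusted p was 0.145, for PLCZ1. Of the 58 rows, 23 were higher and 35 lower, with a median log2 fold change of -0.045.

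How large a difference could have been missed depends on the row. For the 13 rows that were above background in all 9 wells, leaving out ZBTB33 and ZBTB38, fold changes lay between -0.059 and 0.050 on the log2 scale, and no 95% interval went below 0.773-fold or above 1.26-fold. For the 39 tissue-restricted rows at background in the IMR90 controls, the intervals reached 0.607-fold and 1.68-fold, and these bounds concern counts that are largely background. The intervals speak of the mean of the 9 enzymes and do not bound the change in any 1 well.

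**Figure D2:**
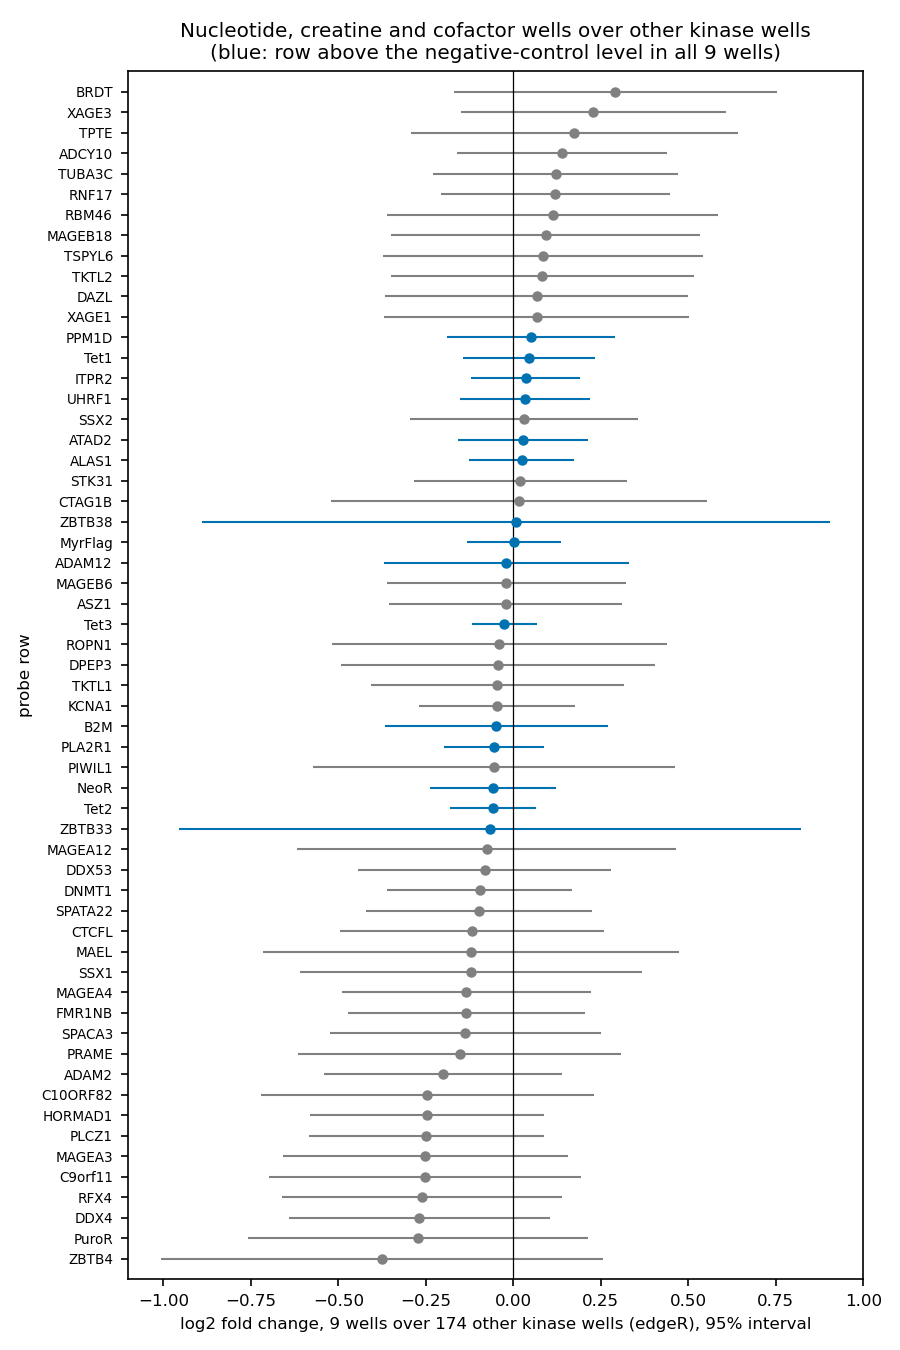
Log2 fold change of each of the 58 rows (y axis) in the 9 wells over the other kinase wells (x axis), as fitted by edgeR on counts, with 95% intervals. Every interval includes 0. Rows above background in all 9 wells (blue) have the narrower intervals, except ZBTB33 and ZBTB38.

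The 5 rows with the smallest p were all tissue-restricted and weakly counted. PLCZ1, the sperm phospholipase that activates the egg, had 22.8 normalized counts in UCK2, 19.6 in TK1, 10.6 in CMPK, 32.1 in CKM, 16.1 in CKMT1A, 11.7 in CKMT2, 17.2 in PAPSS1, 39.9 in PDXK and 37.2 in PMVK. The other kinase wells had a median of 25.4 and a range of 10.2 to 69.9, and all 9 values lay within this range. The log2 fold change was -0.25 (standard error 0.17, adjusted p = 0.987, edgeR). HORMAD1, a protein of the meiotic chromosome axis, had a log2 fold change of -0.25, DDX4, a germ cell RNA helicase, of -0.27, RFX4, a transcription factor, of -0.26 and BRDT, a testis bromodomain protein, of 0.29, all with the same adjusted p. Their medians over the 9 wells were 11.6, 10.1, 7.25 and 4.26 normalized counts, against 13.2, 11.3, 10.2 and 2.92 in the other kinase wells.

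The gene lists gave the same picture, with 0 members passing in any list. The MAGE family (5 rows) had a median difference of -0.012 on the log2 scale of normalized counts between the 9 wells and the others, the other cancer/testis antigens (7 rows) of 0.00068, and the germ cell RNA-binding and piRNA genes (8 rows) of -0.015. The germline chromatin, transcription and meiosis genes (7 rows) were at -0.056, the sperm structure and fertilization genes (7 rows) at -0.18 and the testis-restricted enzymes (5 rows) at 0.064. Over all 58 rows the median was -0.022.

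The tissue-restricted genes ADAM12, ALAS1 and ATAD2 were counted in IMR90 cells themselves, and ALAS1 and ATAD2 allow a firmer reading. ADAM12 was nearer background, with 30 to 88 raw counts in the 9 wells, so its reading is less firm. ADAM12, a metalloprotease, had 67.7 normalized counts in UCK2, 63.8 in TK1, 40.3 in CMPK, 35.5 in CKM, 48.2 in CKMT1A, 31.9 in CKMT2, 40.2 in PAPSS1, 47.9 in PDXK and 36.2 in PMVK. The controls had 33.2 and 44.4, and the other kinase wells 24.8 to 478 (median 42.6). UCK2 and TK1 ranked 6 and 10 among all kinase wells. Both also stood just above the 10 other kinase wells of their block, which reached 62.5. Their raw counts of 80 and 88, at lane levels of 60.1 and 65.8, had exact Poisson 95% intervals of 63.4 to 99.6 and of 70.6 to 108.4. These intervals cover counting error only and are in raw counts. The lane factors of 0.846 and 0.725 bring them to the normalized scale, where both include 62.5. The log2 fold change of the 9 wells over the others was -0.020 (95% interval -0.37 to 0.33, edgeR).

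ALAS1, which starts heme synthesis with the pyridoxal phosphate that PDXK makes, had 381 to 574 normalized counts in the 9 wells, with 498 in the PDXK well. The other kinase wells had a median of 453, and the controls had 422 and 500. ATAD2, a chromatin ATPase with a bromodomain, had 122.7 to 222, lowest in PMVK and highest in UCK2, with 220 in TK1. The controls had 175.3 and 217. The log2 fold changes over the other kinase wells were 0.024 for ALAS1 and 0.027 for ATAD2, with 95% intervals of -0.13 to 0.17 and of -0.16 to 0.21.

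**Figure D3:**
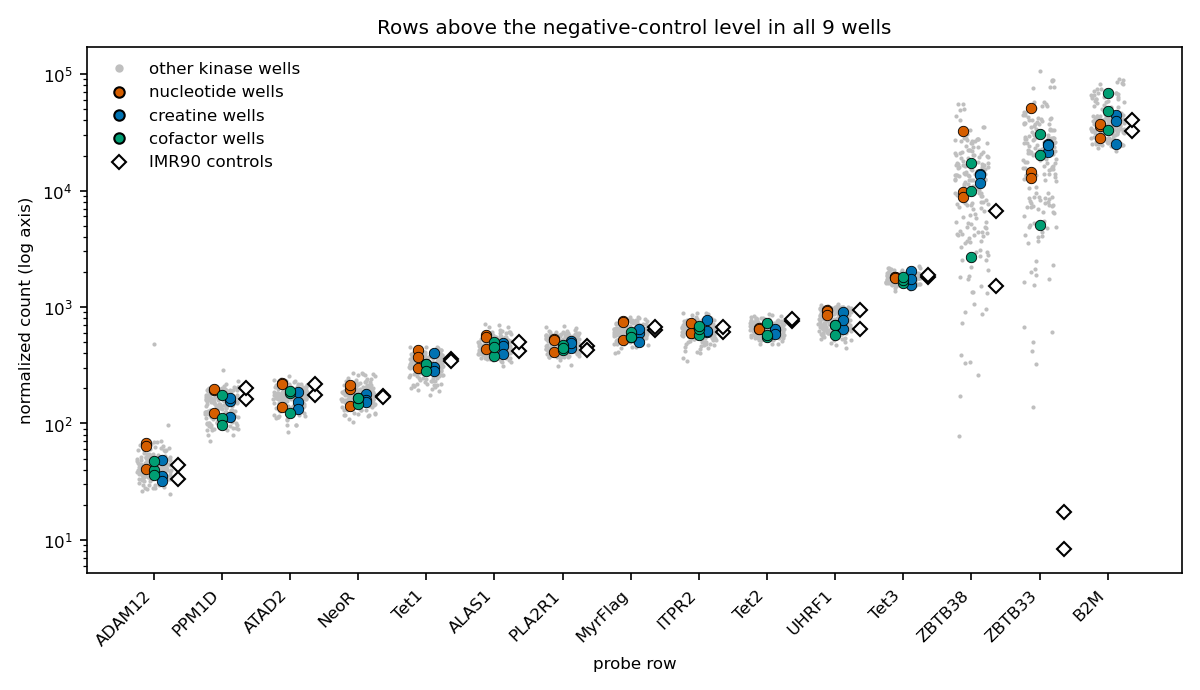
Normalized counts (y axis, log) of the 15 rows above background in all 9 wells. Colored points are the 9 wells by class, grey points the other kinase wells (spread sideways at random) and diamonds the 2 IMR90 controls. The 9 wells lie within the range of the other kinase wells in every row, and only in ZBTB33 do the controls lie far below all of them.

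Among the remaining rows counted in all 9 wells are those named for DNA methylation genes. What these rows and the cell signaling rows below measure is uncertain, for the reason given with the row named ZBTB33. UHRF1, which brings the maintenance methyltransferase to DNA, ranged from 578 in PMVK to 941 in UCK2. Tet1, Tet2 and Tet3, the enzymes that oxidize methylcytosine, ranged from 282 to 431, from 552 to 722 and from 1533 to 2033. Of the cell signaling rows, ITPR2, a calcium channel of the endoplasmic reticulum, ranged from 570 to 769, PLA2R1, a phospholipase receptor, from 414 to 527 and PPM1D, a phosphatase induced by p53, from 97.6 to 197.2. All these ranges lay within those of the other kinase wells, and none of the rows passed the test.

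Wells were then read singly, as the study did, by Z-score: the distance of a well from the mean over all kinase and control wells in units of their SD, on the scale of log2(normalized count + 1). With 1 lane per enzyme this has no replicate error and is a description. Over all kinase wells, 0.377% of 10614 well/row pairs lay above 2.5 SD and 0.829% below -2.5 SD. In the 9 wells, 0 of 522 pairs lay above 2.5 SD, and 3 pairs (0.575%) lay below -2.5 SD. The highest Z-score was 2.21, for RBM46, a germ cell RNA-binding protein, in the TK1 well, from 21 raw counts where the level was 65.8. The count of 0 high pairs depended on the scale. The RBM46 pair passed with a pseudocount of 10 (2.65) and with the median and median absolute deviation in place of the mean and SD (2.70). With counts below background raised to it, 82 pairs lay above 2.5 SD, all in UCK2 and TK1, whose level is the highest. Among the other kinase wells, 24 wells (13.8%) had at least 1 row above 2.5 SD.

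The rows with the highest and the lowest Z-score of each well were mostly different ones. In the nucleotide class the highest were TPTE in UCK2 (1.90), RBM46 in TK1 and DNMT1, the maintenance methyltransferase, in CMPK (1.34). The lowest were C9orf11 (-0.99), DNMT1 (-1.55) and PRAME. In the creatine class the highest were Tet3 in CKM (1.54), TKTL2, a transketolase-like protein, in CKMT1A (1.11) and XAGE1, a cancer/testis antigen, in CKMT2 (1.21), and the lowest were C9orf11 (-0.97), RBM46 (-2.42) and HORMAD1. In the cofactor class the highest were PPM1D in PAPSS1 (0.88), ADCY10 in PDXK (1.51) and RNF17 in PMVK (2.04), and the lowest were ROPN1, a sperm tail protein (-2.10), Tet2 (-1.39) and SSX2, a cancer/testis antigen (-2.20). Of these 9 highest rows, those of CMPK, CKM, PAPSS1, PDXK and PMVK were above the level of their lane.

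The 3 low pairs rested on very few counts. The Z-score of HORMAD1 in CKMT2 was -3.52 and rested on 3 raw counts (exact Poisson 95% interval 0.619 to 8.77, level of 17.2). PRAME, a cancer/testis antigen, had -3.27 in CMPK from 1 raw count (0.0253 to 5.57, level of 18.3), and PLCZ1 had -2.53 in the same well from 11 raw counts. All 3 counts were below the level of their lane, so they describe background. When counts below background were raised to it, the 3 Z-scores became -0.58, -0.60 and -1.49.

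**Figure D4:**
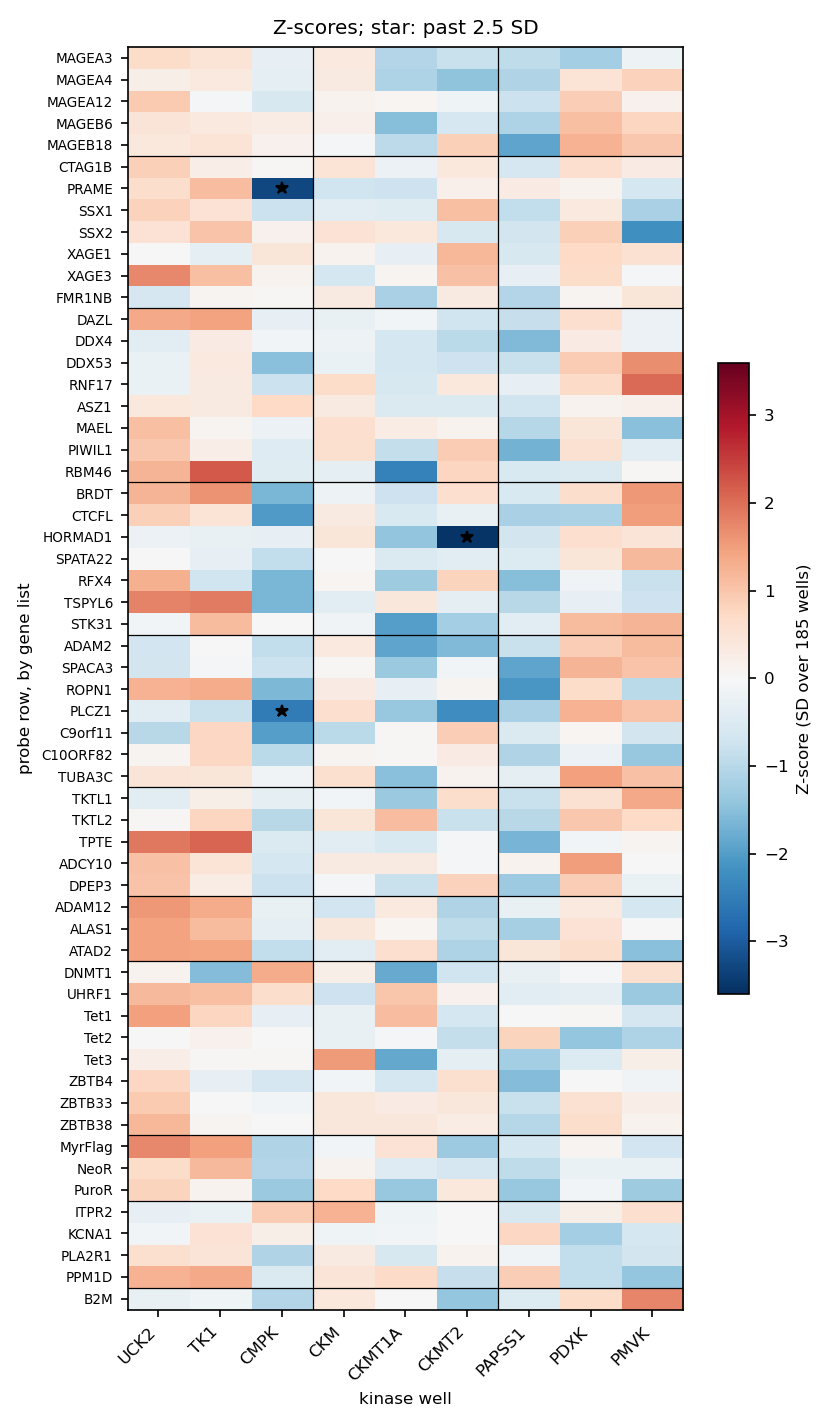
Z-scores of the 58 rows (y axis, grouped by gene list) in the 9 wells (x axis, separated by class). Red is above and blue below the mean over all kinase and control wells, in SD, and stars mark the 3 pairs past 2.5 SD, all of them low. Columns differ as a whole: UCK2, TK1 and PDXK are mostly red and PAPSS1 is mostly blue.

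In PAPSS1, 51 of 58 rows were below the mean of the wells, and the 39 silent rows summed to 260 normalized counts, the lowest of the 9. In PDXK, 41 of 58 rows were above the mean and the silent rows summed to 492, the highest, followed by 483 in TK1 and 482 in UCK2. The controls were at 242 and 281, and the other kinase wells ranged from 183.2 to 714 (median 406). Within their own blocks, PAPSS1 and PDXK did not stand apart. The 10 other kinase wells in the block of PAPSS1 had 183.2 to 412.5 (median 272), and those in the block of PDXK had 362 to 585 (median 480). UCK2 and TK1 were above the 10 other wells of their block, which had 273.5 to 467. No silent row of either was above the level of its lane, so these 2 sums describe background. The level of TK1 was above those of all 10 other wells of the block, and that of UCK2 above 9 of them. CMPK, at 293, and CKMT2, at 363, were below all 10 other wells of theirs, which had at least 342 and 365.

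Silent rows that rose above the level of their own lane were few. Of the 39, 13 did so in PDXK, 6 in PMVK, 2 in CKM and 1 each in CMPK and CKMT2, and none in UCK2, TK1, CKMT1A and PAPSS1. In UCK2 and TK1 the level to be passed was itself the highest. Other kinase wells had 0 to 20 (median 3), and the controls none. In the block of PDXK the 10 other kinase wells had 2 to 16, 2 of them more than PDXK. In that of PMVK the 11 other kinase wells had 1 to 12, 3 of them more than PMVK. In PDXK, PLCZ1 had 55 raw counts (95% interval 41.4 to 71.6) at a level of 21.9. The 13 included ADAM2, a sperm surface protein (33 counts), DDX53, a helicase (31), and ADCY10, the soluble adenylyl cyclase (26). In PMVK they were PLCZ1 (37 counts), DDX53 (30), RNF17 (27), ADAM2 (26), SPATA22 (25) and FMR1NB (22), at the same level. RNF17 is a Tudor domain protein of germ cells. Of the 23 pairs above the level in the 9 wells, 4 had a Poisson interval wholly above it: PLCZ1 in PDXK, PMVK and CKM (47 counts, interval 34.5 to 62.5, level of 29.9) and ADAM2 in PDXK (interval 22.7 to 46.3). None of the 23 was past 2.5 SD. PLCZ1 was above the level of the lane in 33.3% of the 9 wells and in 74.1% of the other kinase wells. For ADAM2 these shares were 22.2% and 40.8%. Among rows above the level in more than 1 of the 9 wells, FMR1NB (55.6% and 48.9%) and RNF17 (22.2% and 14.4%) went the other way.

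PMVK was the member whose counted rows lay farthest from the mean of its block, by a root mean square of 0.301 on the log2 scale over the 13 rows, against 0.0836 to 0.219 in the other members and a median of 0.181 in the other kinase wells. B2M, the light chain of class I histocompatibility molecules, had 68240 normalized counts there. The 11 other kinase wells of its block had 28815 to 58880, with a median of 33967, so PMVK was the highest of its block, and it ranked 13 among all kinase wells (Z-score 1.77). B2M was 48134 in PDXK, 44203 in CKM, 39220 in CKMT1A, 37131 in TK1, 35886 in UCK2, 33433 in PAPSS1, 28142 in CMPK and 25096 in CKMT2. The last 2 were low, and so were most wells of their blocks, whose medians were 25326 and 25554. PPM1D had its lowest value of the 9 in PMVK, with 97.6 against 100.7 to 151.1 in the other wells of that block. Without a second PMVK well, these differences could not be set against replicate error.

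UCK2 and TK1 stood together in a different way. Both had high MyrFlag (762 and 737) and PPM1D (192 and 197.2), but the other kinase wells of their block had medians of 756 for MyrFlag and 194.05 for PPM1D. Their distances to the mean of the block were 0.105 and 0.0836, against 0.325 and 0.296 to the mean of all kinase wells. CMPK, the third enzyme of the nucleotide class, lay in another block, and there had the lowest MyrFlag and PPM1D of its block, with 521 and 121.9.

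**Figure D5:**
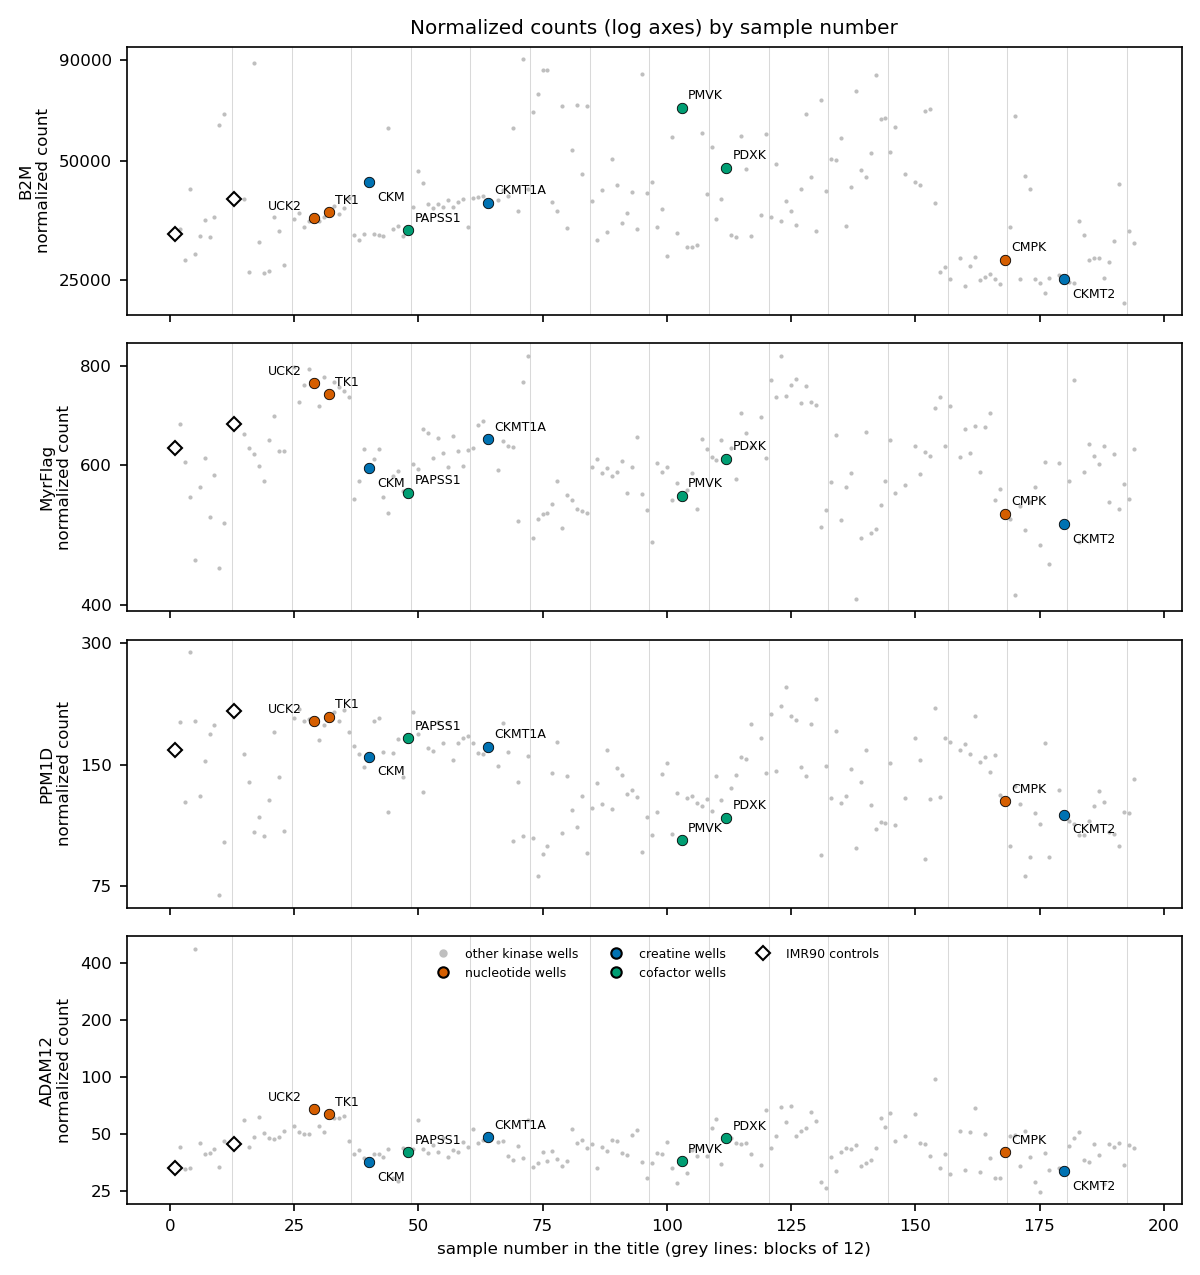
Normalized counts (y axes, log) of B2M, MyrFlag, PPM1D and ADAM12 against the sample number in the title (x axis), with grey lines between blocks of 12. Colored points are the 9 wells, grey points other kinase wells and diamonds the IMR90 controls. UCK2 and TK1 lie at the height of their neighbors in MyrFlag and PPM1D, and PMVK lies above all wells of its block in B2M.

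The 3 classes were compared among themselves (3 wells each), and 0 of 58 rows passed (0%, edgeR), with 3 at an unadjusted p under 0.05 (5.17%). These 3 were TPTE, a testis phosphatase (p = 0.0108), TSPYL6 (p = 0.0242) and RBM46 (p = 0.0314), with an adjusted p of 0.608 each. TPTE had 20.3 normalized counts in UCK2 and 22.5 in TK1, but 5.76 in CMPK, 5.67 to 7.45 in the creatine class and 2.87 to 8.05 in the cofactor class. Only UCK2 and TK1 were high, and in both TPTE was below the level of the lane. With the block as a term in the fit, the unadjusted p of the 3 rows was 0.827, 0.623 and 0.907.

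The wells nearest by chemistry were 5 related enzymes that the choice by name leaves out: CKB (a creatine kinase), DGUOK and NME7 (nucleotide enzymes), NADK (which phosphorylates the cofactor NAD) and MVK (mevalonate kinase, the step before PMVK). No row passed between them and the 9 wells (0 of 58, edgeR, smallest adjusted p = 0.227), and 8 rows had an unadjusted p under 0.05 (13.8%), all lower in the 9 wells. PLCZ1 (-0.74), HORMAD1 (-0.73) and MAGEA3 (-0.78) were among the 8, given as log2 fold changes. PLCZ1 was 47.1 in CKB, 25.6 in DGUOK, 27.6 in NME7, 42.3 in NADK and 46.3 in MVK, against 10.6 to 39.9 in the 9 wells. The 5 related wells lay in 2 blocks, with totals of 88768 to 153475 counts. With the block in the fit, PLCZ1 and HORMAD1 had unadjusted p of 0.945 and 0.394.

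In the pairs within a pathway, ADAM12 was 40.1 in MVK and 36.2 in PMVK, and B2M was 57018 and 68240. Among the cytosolic creatine kinases, ADAM12 was 61.2 in CKB and 35.5 in CKM, and B2M was 63920 and 44203. Each value comes from 1 lane, so no pair was tested.

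Against 11 wells with enzymes of sugar metabolism (HK2, HK3, PFKL, PFKM, PKM2, GALK2, GK, GK2, ADPGK, DAK and PCK2), 0 of 58 rows passed (edgeR, smallest adjusted p = 0.612), and 1 row had an unadjusted p under 0.05 (1.72%). This was the row named PuroR, for puromycin resistance (log2 fold change -0.79). It had at most 13 raw counts in the 9 wells and was not above background in any of them.

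Against the 2 IMR90 controls, ZBTB33 was the 1 row of 58 that passed (1.72%), and 4 rows had an unadjusted p under 0.05 (6.9%). The other 3 were Tet2, ADCY10 and DAZL. Tet2 was 552 to 722 in the 9 wells and 755 and 795 in the controls, so the groups did not overlap. Its log2 fold change was -0.29 (standard error 0.14, adjusted p = 0.449, edgeR). With the block as a term it was -0.43 with an adjusted p of 0.00953 (edgeR), and over all alternatives the adjusted p ranged from 0.00953 to 0.931. None of the 9 wells lay in the blocks of the controls. With the block as a term the comparison therefore runs through the other kinase wells and is not a direct one. In the blocks of the controls, 1 of 10 and 0 of 9 other kinase wells had more Tet2 than the control.

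ADCY10 and DAZL, a germ cell RNA-binding protein, were higher in the 9 wells (log2 fold changes of 0.94 and 1.45, adjusted p = 0.449 for both), but the counts in the controls were 5 and 9 for ADCY10 and 3 and 4 for DAZL, all below background. Neither was past background in more than 1 of the 9 wells. With the second lane of a control added to its first lane, ADCY10 passed (log2 fold change 1.41, adjusted p = 0.0167, edgeR). That lane is a repeat of the same control and no further replicate, and over all alternatives the adjusted p of ADCY10 ranged from 0.0167 to 0.931. Both controls lay outside the range of the 9 wells in 7 of 58 rows (12.1%): CTAG1B, DAZL, MAGEA12, RNF17, XAGE1, Tet2 and ZBTB33. In a two-sided exact permutation test over the 55 choices of 2 controls among 11 wells, the smallest p possible was 0.0182, reached by CTAG1B, Tet2 and ZBTB33, and the adjusted p was 0.301.

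Most silent rows were slightly higher in the 9 wells than in the controls, 38 of 39, with a median difference of 0.47 on the log2 scale. Over all 58 rows, 47 were higher than in the controls, with a median of 0.31. Against the other kinase wells, the median difference of the silent rows was -0.023. Of the 39 rows in each of the 9 wells, 23 pairs were above the level of the lane, all of them in CMPK, CKM, CKMT2, PDXK and PMVK. The summed level of the silent rows in the control of the first block was 242, where 10 other kinase wells had 232 to 403, and in the control of the second block 281, where 9 other kinase wells had 230 to 472. The controls thus lay within the range of other kinase wells of the same blocks, and none of the 9 wells was in those blocks.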

How the data were processed

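RNA of IMR90 cells was measured by the authors on the nCounter system with 75 probes per lane, and the counts of each lane were deposited as raw counts. A table of the whole series was deposited as well, whose signal is the count times 1 factor per lane (for 184 of the 185 lanes used here), and it served as an alternative. No genome build is needed for probe counts, and none is given in the sources used here. Samples were grouped by title. The 9 wells and the gene lists were chosen with earlier results of these data known. Left out were HK1, the second lanes of PIK3CG, PTK2 and 1 IMR90 control, SW39 cells (2 lanes) and the mixed reference RNA (6 lanes).

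Normalized counts were obtained by dividing each lane by its positive controls and next by the geometric mean over 3 housekeeping genes (PGK1, TBP, TUBB2A), a step that cancels the former. The 57 endogenous rows and B2M were tested in R 4.3.3 with edgeR 4.0.16 (quasi-likelihood, robust) on raw counts with the housekeeping genes as offset, in 1 fit over 185 wells, with Benjamini-Hochberg adjustment over 58 rows. The standard error was derived from the F statistic. Wells of different enzymes were treated as the replicates of a group, so p-values measure the spread between enzymes and lanes. DESeq2 1.42.0, limma 3.58.1, TMM factors, other normalizers, a filter on low rows, blocks of 12 sample numbers and each well left out were alternatives. Z-scores and permutation tests used Python 3.11.15 with scipy 1.17.1, pandas 2.3.3 and numpy 2.4.6, and a pseudocount of 1. Fits were tested on simulated data.

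Rows were named by rule: those past an adjusted p of 0.05, or the 5 with the smallest p where none passed, ADAM12, ALAS1, ATAD2, B2M, MyrFlag and ZBTB33, pairs past 2.5 SD, the highest and lowest row of a well, and rows above background in all 9 wells. Other named rows were picked with their values in view. Depth per lane limits weak rows most. Exact Poisson intervals (95%) on counts cover counting error only.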

Additional observations from a re-analysis of the deposited data

Results flagged for a closer look

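In 58 rows, the lowest and the highest of the 9 wells and of the 5 related enzyme wells were examined for a gap to the nearest well that was large for the range of the group (Dixon's ratio on log2 values). Chance gives about 1 such case in 20 groups, or 5.8 over the 58 rows in both groups of wells, and 6 were found, so their number is near that of chance. In the 9 wells they were PRAME in CMPK (ratio 0.576, 1 raw count) and HORMAD1 in CKMT2 (ratio 0.511, 3 raw counts), both lowest and both below the level of the lane. In the related wells they were CTAG1B in NADK, highest (ratio 0.914, 13 raw counts, at the level of its lane), XAGE1 in NADK, lowest (0.738, 2 raw counts), STK31 in NME7, lowest (0.816, 7 raw counts), and ITPR2 in NME7, lowest (0.828). ITPR2 is the 1 case with a well-counted row, at 668 normalized counts against 727 in the nearest well, CKB.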

How the results depend on the processing

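No paired analysis was possible because the kinase lanes carry no replicate number that groups share. The blocks of 12 sample numbers were used as a replicate block in place of it. The number of rows past an adjusted p of 0.05 was 0 under every alternative for the 9 wells against the other kinase wells, the related enzymes and the sugar enzymes and among the classes. Against the controls it was 2 with the block as a term (ZBTB33 and Tet2), 2 when the second lane of a control, a repeat of it, was summed with the first (ZBTB33 and ADCY10) and 1 otherwise. Leaving out 1 well left these counts as they were. The log2 fold change of ZBTB33 over the controls ranged from 10.35 to 11.40.

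The number of member pairs past 2.5 SD was 3. It was 82 with counts floored at the negative-control level, all in UCK2 and TK1 (41 each), whose floor is the highest. It was 5 when centred on the median and scaled by the median absolute deviation, and 5 with each block centred. With 4 housekeeping genes and with a pseudocount of 0.5 it was 4. With positive controls only, with a pseudocount of 10 and with the deposited signal it was 2. With 1 well left out it was 1 to 3 (1 without CMPK). The pairs were low except for the 82 and for RBM46 in TK1, which was high with a pseudocount of 10 and with the median and median absolute deviation. The block centring, the fits without the block of UCK2 and TK1, the block against the controls and the fits without PIP5K2A for the comparisons other than the main 1 were chosen after seeing the data.

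Directions of rows that passed no test were not stable. Against the other kinase wells, the log2 fold change turned to 0.045 (block) and 0.030 (limma) for ADAM12, to 0.36 (block) and 0.31 (limma) for ZBTB33, to 0.11 (block) for B2M, to -0.067 (block) and -0.066 (without the block of UCK2 and TK1) for ATAD2 and to -0.045 (without that block) for ALAS1. For MyrFlag it turned to -0.056 (block), -0.075 (without that block), -0.0062 (TMM) and -0.0041 (without related and sugar enzymes). With 1 well left out, values ranged from -0.11 to 0.031 for ADAM12, -0.016 to 0.058 for ALAS1, -0.026 to 0.077 for ATAD2, -0.18 to 0.017 for B2M, -0.044 to 0.032 for MyrFlag and -0.31 to 0.068 for ZBTB33. Against the controls, Tet2 turned to 0.032 and MyrFlag to 0.22 with positive controls only, ADAM12 to -0.15 and B2M to -0.25 with DESeq2's own size factors, and B2M ranged from -0.0091 to 0.29 with 1 well left out. The cause was not tested.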
